A study of Mus musculus with 32 samples.

Results

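The genes described here encode lysosomal enzymes, lysosomal membrane proteins and subunits of the vacuolar proton pump in the lung of newborn C57BL/6 mice. The 39 genes were taken by name, from a list drawn up with earlier results of these data known. All 39 had a record in each of the 32 libraries, among 46165 gene records per library. Over all libraries together 18853 records had at least 1 exon read, and in single libraries 16211 to 16834 did. The libraries came from a study of how control interventions affect gene expression in the developing lung, and they fall into 8 groups of 4. At postnatal day 6 the groups were saline, Miglyol and tamoxifen. Saline and Miglyol, an oil vehicle, were each injected into the peritoneum as 25 µl on postnatal days 1 and 2, and the tamoxifen group received 0.4 mg of tamoxifen in 25 µl of Miglyol on the same days. At postnatal day 14 the groups were untreated mice, mice given saline daily at 25 µl per g from day 1 to day 13, mice given nuclease-free water at 10 µl per g on days 1 and 3, and mice given scrambled1 or scrambled2, each a scrambled locked nucleic acid control for antagomiRs, at 10 mg per kg in that water on days 1 and 3. No group was untreated at day 6, and the day 6 and day 14 mice were killed with different anaesthetics, pentobarbital and isoflurane. Lungs were perfused with buffer and whole-lung RNA was made into stranded mRNA libraries.

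Lysosomes are acidic compartments that break down proteins, glycans, lipids and nucleic acids. The vacuolar ATPase keeps them acidic: its V1 domain hydrolyses ATP in the cytosol and its V0 domain carries protons across the membrane. Cathepsins are the main lysosomal proteases, NPC2 and NPC1 pass cholesterol out of the lumen, and the transcription factor TFEB binds a short promoter element found in many lysosomal genes. In the lung, macrophages and alveolar type 2 cells are rich in lysosomes or lysosome-related organelles, the latter as the lamellar bodies that store surfactant. Tamoxifen, widely given to activate inducible Cre recombinase, is a cationic amphiphilic drug, a class of weak bases that can collect in lysosomes.

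Libraries held 7918537 to 12443221 exon reads, and 87.5% to 90.9% of them were unique. The 39 genes together took 0.558% to 0.821% of a library's exon reads. Lung identity was clear: the summed level of 8 alveolar type 2 markers was 13264 to 19953 CPM (exon reads scaled to library size, counts per 1000000) and that of 4 airway markers 3766 to 9046, with none of these genes at 0 in any group. The labels do not say that the 4 libraries of a group came from separate mice, so each p-value refers to the variation among the libraries sequenced, which may be technical. In the tamoxifen group, replicate 4 was the lowest library for 31 of the 39 genes, and the tamoxifen results are therefore given with and without it. Among the day 14 libraries, water replicate 3 stood out for other tissues, with summed levels of 559 CPM for 6 adipose markers and 242 for 6 skeletal muscle markers, against 3.61 to 129 and 4.73 to 26.7 in the other libraries.

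Levels between genes were compared on the authors' deposited TPM (transcript abundance scaled to gene length and library size). The most abundant transcripts over all 32 libraries were Lamp1, a glycosylated protein that lines the lysosomal membrane, with a mean TPM of 708, and Psap, the precursor of the saposins that help degrade sphingolipids, at 670.1. Next came the aspartic protease gene Ctsd at 624, Npc2 at 415 and Ctsh at 354, a protease that takes part in maturation of surfactant protein B. At the other end were the sialidase gene Neu1 at 22.5, Atp6v0d2 at 19.1 and Tfeb at 16.7. The least abundant of these, Tfeb, ranked above 56.1% of genes with reads, and Lamp1 above 99.3%. Tfeb still had at least 132 exon reads in every library and Atp6v0d2 at least 91.

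Within the pump, the level of transcripts per length differed widely between subunits. In the V0 domain, mean TPM was 353 for the proteolipid gene Atp6v0c, 198 for the accessory subunit gene Atp6ap1, 160 for Atp6v0e, 150 for Atp6v0d1, 131 for Atp6v0b and 58.9 for Atp6v0a1. In V1 it was 200 for the stalk gene Atp6v1e1, 176 for Atp6v1f, 113 for the nucleotide-binding subunit gene Atp6v1b2, 89.995 for Atp6v1d, 82.5 for the catalytic subunit gene Atp6v1a, 57.9 for Atp6v1c1 and 41.7 for Atp6v1h. Atp6v0d1 and Atp6v0d2 encode alternative forms of the same subunit, the first made in most cells and the second best known from osteoclasts, kidney and macrophages. The value for Atp6v0c is uncertain, because only 18.3% of its reads were unique and the rest could belong to near-identical copies elsewhere in the genome. Npc1, with 67.6% unique reads, and Psap, with 86.8%, are likewise described as sharing reads, and the other 36 genes had at least 90% unique reads.

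Among proteases, mean TPM was 316 for Ctsl, 195 for Ctsb, 191 for Ctsz, 161 for Ctss, 94.8 for the tripeptidyl peptidase gene Tpp1, 89.0 for Ctsa and 31.1 for the collagen-degrading Ctsk. Among other hydrolases and their cofactors it was 203 for the progranulin gene Grn, 111 for Hexa, 104 for the acid lipase gene Lipa, 75.4 for Gusb, 53.9 for the glycogen-degrading Gaa, 46.9 for Man2b1 and 36.6 for Glb1. In the membrane group it was 203 for Lamp2, 156 for Scarb2, 40.8 for the cation channel gene Mcoln1 and 32.2 for Npc1. Scarb2 encodes the receptor that carries glucocerebrosidase to lysosomes. Protease genes thus covered the range from Ctsd among the 3 most abundant genes of the set to Ctsk among the 4 least abundant.

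Promoters are shown because TFEB is known to bind a core motif, CACGTG, found next to the start of many lysosomal genes. RefSeq promoter sequences on build GRCm38.p6, each reaching from 250 bases before to 50 bases after a transcript start, were found for 32 of the 39 genes, 38 promoters in all. CACGTG, which reads the same on both strands, was found in 11 of the 38 (28.9%), against 7.15% of all 32851 promoters in the same table. The longer TCACGTG, searched on both strands and containing the first motif, was in 10 (26.3%), against 3.77% of all promoters, and the variant TCATGTG was in 6 (15.8%), against 3.77%. The 18 CACGTG matches lay in promoters of Ctsa, Ctsd, Ctsl, Gaa, Glb1, Lamp1, Mcoln1, Atp6v0b, Atp6v0d1, Atp6v0e and Atp6v1a, and 14 of them began within 100 bases of the start. A match of letters is a description and does not show binding.

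**Figure D1:**
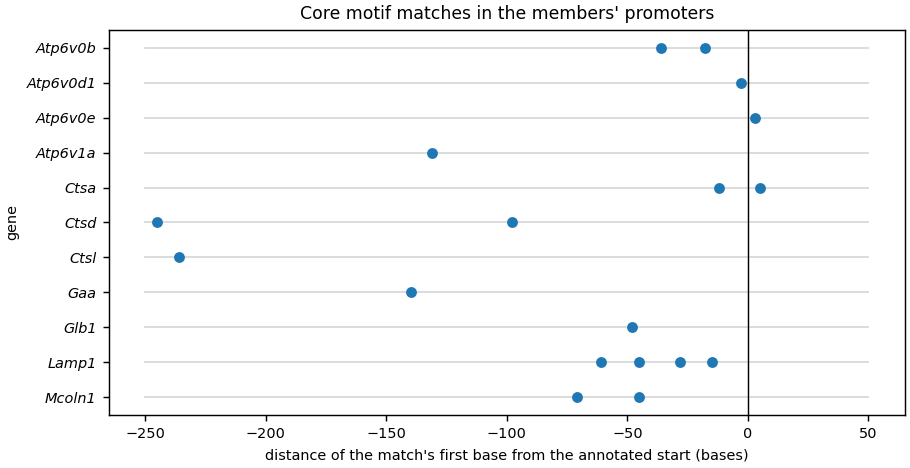
Positions of CACGTG matches in the promoters of the 11 genes that have at least 1. Each dot is the first base of a match, in bases from the annotated transcript start, grey lines span the 300 bases searched, and Lamp1 has 4 matches, all before its start.

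Promoters with several matches are printed for Lamp1, which holds the most, for Mcoln1 and Atp6v0b with a pair each, and for Ctsd, the 1 gene with a match that was called after tamoxifen. A promoter of Ctsa also holds a pair, beginning 12 bases before and 5 after the start, and is not printed. Capitals mark CACGTG, and each sequence reads 5′ to 3′ on the gene's own strand.
Lamp1, chr8:13158911-13159210, plus strand: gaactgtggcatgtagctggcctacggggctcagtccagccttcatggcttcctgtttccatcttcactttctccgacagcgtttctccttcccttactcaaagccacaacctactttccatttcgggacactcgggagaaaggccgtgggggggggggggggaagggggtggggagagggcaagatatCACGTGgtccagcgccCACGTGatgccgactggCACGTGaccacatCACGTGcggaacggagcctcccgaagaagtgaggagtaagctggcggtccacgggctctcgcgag
Mcoln1, chr8:3500269-3500568, plus strand: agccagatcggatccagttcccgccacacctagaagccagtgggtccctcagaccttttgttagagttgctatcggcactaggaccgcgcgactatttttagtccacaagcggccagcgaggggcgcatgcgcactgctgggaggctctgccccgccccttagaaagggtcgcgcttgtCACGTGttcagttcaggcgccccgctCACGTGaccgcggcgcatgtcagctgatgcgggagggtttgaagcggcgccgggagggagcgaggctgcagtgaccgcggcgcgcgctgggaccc
Atp6v0b, chr4:117887280-117887579, minus strand: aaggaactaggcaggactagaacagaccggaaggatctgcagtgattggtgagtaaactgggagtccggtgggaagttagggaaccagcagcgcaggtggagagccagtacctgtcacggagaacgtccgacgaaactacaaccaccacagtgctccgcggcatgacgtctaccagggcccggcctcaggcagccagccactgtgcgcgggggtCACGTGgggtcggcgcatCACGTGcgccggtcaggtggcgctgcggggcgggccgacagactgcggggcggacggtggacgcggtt
Ctsd, chr7:142387778-142388077, minus strand: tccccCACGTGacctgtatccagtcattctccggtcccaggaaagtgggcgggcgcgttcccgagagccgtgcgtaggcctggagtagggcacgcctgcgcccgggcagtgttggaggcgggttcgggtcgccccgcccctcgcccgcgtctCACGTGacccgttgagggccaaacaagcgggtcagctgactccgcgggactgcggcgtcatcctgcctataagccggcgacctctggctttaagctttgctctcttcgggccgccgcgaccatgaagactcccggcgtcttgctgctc
In Lamp1 the matches began 61, 45, 28 and 15 bases before the start, in Mcoln1 71 and 45 bases before it, in Atp6v0b 36 and 18, and in Ctsd 245 and 98. The promoters of Tfeb, Psap, Npc2, Scarb2, Ctss, Ctsk and Ctsz in the table held no CACGTG, and these are among 21 genes with a promoter and no match.

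The effect of tamoxifen was measured against its vehicle, Miglyol, at day 6. Transcripts of 8 of the 39 genes were higher after tamoxifen and none was lower, at an adjusted p under 0.05 in edgeR's quasi-likelihood test with Benjamini-Hochberg adjustment over all 14107 genes tested. The background was 5.68% of all genes called, with 3.71% higher and 1.96% lower. The 8 were Scarb2, Atp6v0d2, Npc2, Psap, Ctsh, Ctsd, Ctss and Ctsb. Among them were 4 of 9 proteases, 2 of 6 membrane and sterol export genes and 1 of 7 V0 genes. Psap, the saposin precursor, was the 1 called of 9 other hydrolases and their cofactors. None of 7 V1 genes was called, nor was Tfeb. The fold change was above 0 on the log2 scale for 35 of the 39, with a median of 0.14 against -0.00 over all genes. In bulk tissue, more cells of a type and more RNA per cell cannot be told apart.

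Values are CPM after scaling by trimmed mean of M-values, in replicates 1 to 4. Ctsd, the cathepsin D gene on chromosome 7 (142375916 to 142387870 in the files' coordinates), measured 857, 778, 832 and 429 after tamoxifen, against 419 to 455 in the Miglyol libraries and 391 to 441 in the saline libraries. Replicates 1 to 3 were well above every vehicle library, and replicate 4 lay inside their range. The fold change was 0.73 on the log2 scale (SE 0.17, adjusted p 0.0261 in edgeR). Ctss, the gene of cathepsin S, which trims the invariant chain of class II molecules in antigen-presenting cells, measured 219, 211, 204 and 95.8 after tamoxifen and 80.5 to 103 after Miglyol, a fold change of 1.01 (SE 0.23, adjusted p 0.0349). It showed the same split, with replicate 4 inside the Miglyol range and the other 3 above it.

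Ctsh measured 555, 378, 367 and 312 after tamoxifen, and its 4 Miglyol libraries 243 to 277, so the groups did not overlap. Its fold change was 0.62 (SE 0.13, adjusted p 0.0153). Ctsb measured 446, 424, 464 and 321 against 326 to 348, with replicate 4 under every Miglyol library, and a fold change of 0.30 (SE 0.08, adjusted p 0.0439). Of the 5 other proteases, none passed the test with all 4 libraries. Ctsk lies on chromosome 3 (95499210 to 95509387), where Ctss lies too (95526786 to 95556405), and measured 32.7, 26.9, 40.0 and 14.2 against 16.7 to 20.6, with a fold change of 0.57 (SE 0.24, adjusted p 0.21). Its replicate 4 was lower than every Miglyol library and the other 3 were higher than every one.

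Psap measured 972, 940.3, 1027 and 649 after tamoxifen, and 616 to 683 after Miglyol. Replicates 1 to 3 were above the Miglyol range and replicate 4 within it, and the fold change was 0.47 (SE 0.11, adjusted p 0.0147). Npc2, whose protein binds cholesterol in the lysosomal lumen, measured 770, 683, 677 and 602 against 469 to 587, a fold change of 0.39 (SE 0.08, adjusted p 0.00633). Scarb2 measured 146, 113, 132 and 143 against 85.3 to 108, a fold change of 0.45 (SE 0.08, adjusted p 0.0036). For Npc2 and Scarb2 all 4 tamoxifen libraries were above all 4 Miglyol libraries, and for Scarb2 the lowest of them was replicate 2, not replicate 4.

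Atp6v0d2, on chromosome 4 (19876838 to 19922566), had the largest fold change of the set, 1.497 on the log2 scale (SE 0.24, adjusted p 0.0048). It measured 62.3, 40.6, 43.0 and 23.1 after tamoxifen, 14.0 to 16.9 after Miglyol and 12.7 to 18.3 after saline. All 4 tamoxifen libraries were above both other groups, with replicate 4 nearest to them. Its alternative form Atp6v0d1 measured 82.9 to 107 after tamoxifen and 83.6 to 104 after Miglyol, a fold change of 0.05 (95% interval -0.11 to 0.20). The other 12 pump genes had fold changes between -0.11 for Atp6v1h and 0.19 for Atp6v0c.

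**Figure D2:**
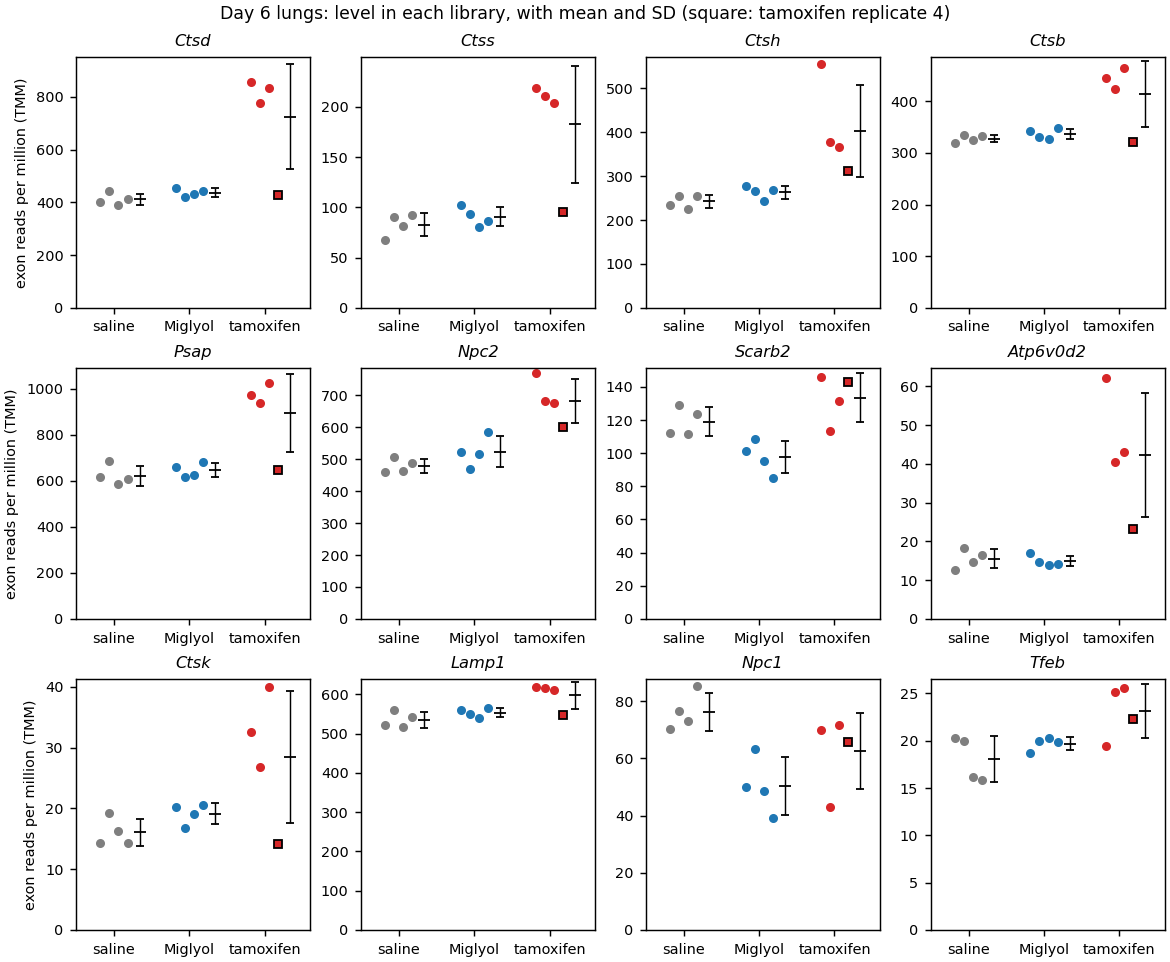
Level of 12 genes in each day 6 library, in CPM (linear axes from 0), for saline, Miglyol and tamoxifen. Dots are libraries, the square is tamoxifen replicate 4, and bars are mean ± SD of 4 libraries. For Ctsd, Ctss, Ctsb, Psap, Ctsk and Lamp1 the square lies with or under the vehicle libraries, while for Scarb2, Atp6v0d2, Ctsh and Npc2 it lies above all Miglyol libraries.

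Tfeb measured 19.4, 25.2, 25.6 and 22.3 after tamoxifen and 18.7 to 20.3 after Miglyol, a fold change of 0.24 (SE 0.10, adjusted p 0.21) that did not pass. Here replicate 1, the highest tamoxifen library for 22 of the 39 genes, was the one inside the Miglyol range. Npc1, read with its shared reads in mind, measured 69.9, 43.1, 71.7 and 65.7 against 39 to 63.4, a fold change of 0.32 (SE 0.16, adjusted p 0.29). Replicate 2 was the low library and 3 of 4 were above the Miglyol range. Lamp1 measured 618, 617, 610.1 and 546 against 539 to 565, a fold change of 0.12 (SE 0.06, adjusted p 0.28), with replicates 1 to 3 above and replicate 4 inside the Miglyol range. Neu1, at 42.1, 41.3, 37.1 and 30.5 against 29.1 to 31.9, was closest to the threshold among genes that missed it (fold change 0.31, SE 0.09, adjusted p 0.0595).

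Each tamoxifen library was then set against the Miglyol libraries gene by gene. Replicate 1 was above the highest Miglyol library for 32 of the 39 genes, replicate 2 for 27, replicate 3 for 26 and replicate 4 for 8, where the same libraries were above it for 28.0%, 24.5%, 26.4% and 27.7% of all genes tested. Replicate 4 was below the lowest Miglyol library for 18 genes (29.1% of all genes) and within the range for 13, and it was the lowest of the 4 tamoxifen libraries for 31 (29.6% of all genes). The median log2 ratio to the Miglyol mean was 0.24, 0.17, 0.18 and -0.04 in replicates 1 to 4. In 5 genes all 4 tamoxifen libraries exceeded all Miglyol libraries (Atp6v0d2, Ctsh, Npc2, Scarb2 and, by a small margin, Man2b1), against a background of 5.63% of genes with this pattern, and in 18 genes 3 of the 4 did (11.0% of all genes).

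**Figure D3:**
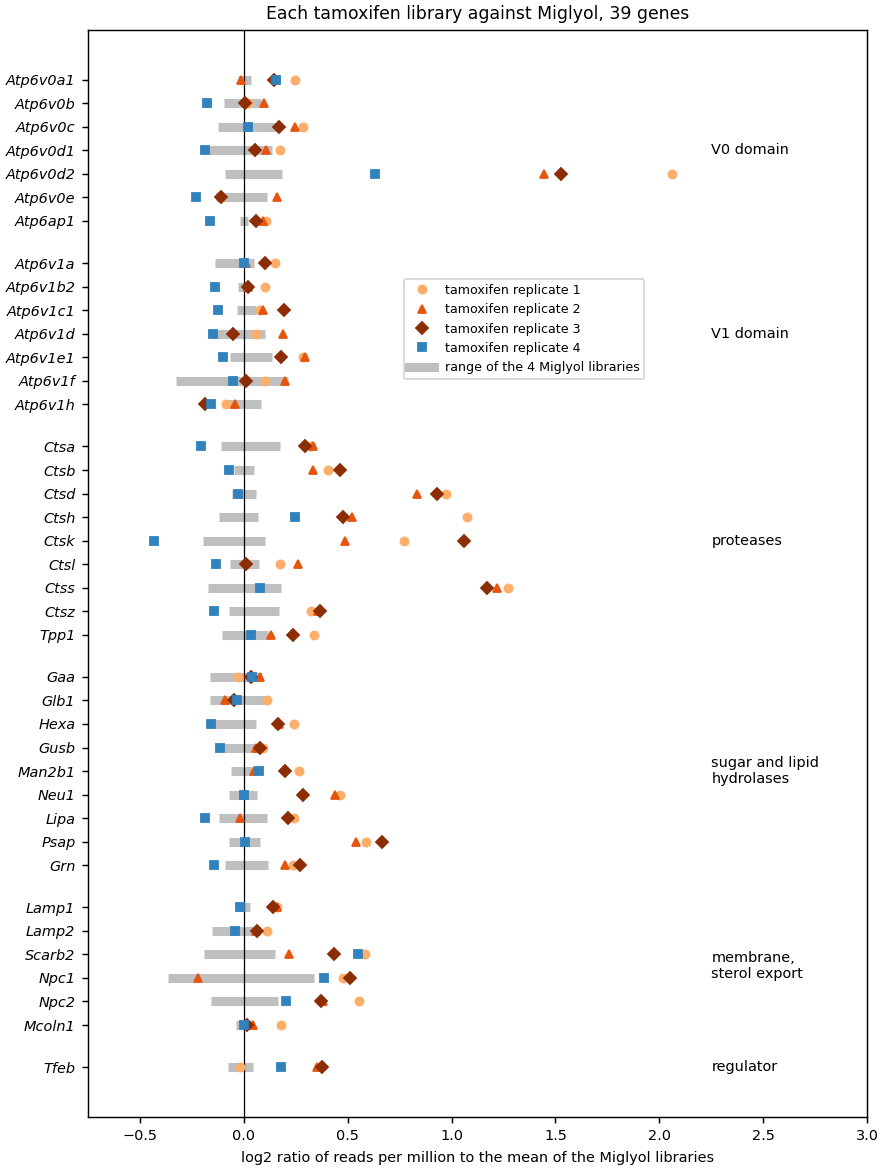
Log2 ratio of each tamoxifen library to the mean of the 4 Miglyol libraries for the 39 genes, grouped by role. Grey bars are the range of the Miglyol libraries and each marker shape is 1 tamoxifen replicate. Replicates 1 to 3 lie to the right of the grey bar for most proteases, and replicate 4 (blue squares) lies on or to the left of it except for 8 genes such as Atp6v0d2 and Scarb2.

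The split between libraries was seen across the proteases. All 9 proteases were above the Miglyol range in replicates 1 and 2 and 8 of 9 in replicate 3, but 1 of 9 in replicate 4. The summed protease level was 2802, 2509, 2564 and 1702 after tamoxifen and 1658 to 1780 after Miglyol. The summed V1 level was 597, 587, 570 and 516 against 538 to 560, so replicate 4 was the only tamoxifen library below the Miglyol range for these pump genes. For the 6 membrane and sterol export genes the sums were 2029, 1864, 1899 and 1738 against 1598 to 1633, and here all 4 tamoxifen libraries were higher.

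Without tamoxifen replicate 4, 15 of the 39 genes were called, all higher, against a background of 7.60% of 14170 genes called and 5.03% called higher and 2.57% lower. Replicate 4 was singled out by its levels of these same genes, so this count and the values below describe the other 3 libraries and are no independent test. The 15 were the same 8 and also Ctsk, Ctsz, Neu1, Ctsa, Atp6v1e1, Tpp1 and Grn. Fold changes became 0.92 for Ctsd, 1.22 for Ctss, 1.70 for Atp6v0d2, 0.60 for Psap and 0.79 for Ctsk. Proteases then made up 8 of the 15 called genes, with Ctsl as the 1 protease not called (fold change 0.16, adjusted p 0.18). With all libraries kept, the calls of Scarb2, Atp6v0d2, Npc2 and Ctsh held when any 1 library was left out, whereas those of Ctsd, Ctss and Ctsb were lost when any 1 of the other 7 libraries was left out, and that of Psap without tamoxifen replicate 1.

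The summed markers of neutrophils, macrophages and airway cells were higher in the tamoxifen group than after Miglyol. The summed level of 9 neutrophil markers was 675, 671, 888 and 243 in tamoxifen replicates 1 to 4, against 119 to 163 after Miglyol and 62.5 to 76.2 after saline, and 5 of 6 tested markers were called higher. Replicate 4 was again the lowest of its group, yet above all vehicle libraries. For 10 monocyte and interstitial macrophage markers the sums were 476, 397, 461 and 379 against 311 to 328 (4 of 10 called), and for 12 alveolar macrophage markers 381, 296, 309 and 277 against 206 to 227 (4 of 11 tested called). Of those 12 alveolar macrophage markers, 7, 5, 4 and 8 were above every Miglyol library in replicates 1 to 4. Below every one were 3, 4, 4 and 0. Airway markers summed to 7270 to 9046 against 4868 to 5402 after Miglyol (3 of 4 called). Of alveolar type 2 markers 4 of 8 were called higher (17167 to 19953 against 15512 to 19175) and of alveolar type 1 markers 2 of 7, and none was called of 6 fibroblast, 6 endothelial and 6 lymphocyte markers. No neutrophil or macrophage marker was at 0 in all 4 tamoxifen libraries. The part of these cells in the lysosomal transcripts was not tested.

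Among other genes of the lysosome, counted by lists that were drawn up with earlier results known, 4 of 32 further hydrolases and 4 of 16 further membrane proteins were called higher after tamoxifen and none lower. None was called of 9 further pump genes, 16 regulators and sorting genes, 7 autophagy genes or 2 cathepsin inhibitors tested. Gpnmb, a glycoprotein of macrophages and melanosomes, had a mean of 53.4 ± 35.6 (SD, n = 4) and a range of 5.90 to 84.9 after tamoxifen, against 2.71 to 4.99 after Miglyol, a fold change of 3.79 (SE 0.72, adjusted p 0.0161). Acp5, the tartrate-resistant acid phosphatase of osteoclasts and macrophages, measured 13.9 ± 3.16 against 7.68 ± 0.23 (fold change 0.85, adjusted p 0.00257). Cd68, a macrophage membrane protein of late endosomes, had a fold change of 0.90 (SE 0.20, adjusted p 0.0153), and its groups overlapped. Laptm5, Cln3, Dnase2a and Galns had fold changes of 0.52, 0.37, 0.49 and 0.33. The osteoclast genes Calcr, Ocstamp and Dcstamp together with Acp5 summed to at most 17.3 CPM in any tamoxifen library.

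Of the 8 called members, 5 had a promoter in the RefSeq table, and 1 of these, Ctsd, held CACGTG. Over the 11 members with a match the median fold change between tamoxifen and Miglyol was 0.06, and over the 21 members with a promoter but no match it was 0.17. The variant TCATGTG was not compared in this way.

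The vehicle itself was compared with saline at day 6. Between them 3 of the 39 genes were called, 1 higher and 2 lower after Miglyol. The background was 10.6% of genes called, 3.33% higher and 7.29% lower, so the share of these genes did not exceed that of all genes. Atp6v0b, a V0 proteolipid gene, was higher: 78.4, 71.1, 74.3 and 80.5 after Miglyol and 63.3, 56.2, 53.8 and 51.7 after saline, without overlap (fold change 0.43, SE 0.08, adjusted p 0.0077). Tamoxifen libraries, at 67.4 to 81.4, were near those of Miglyol. Npc1, subject to its shared reads, was lower after Miglyol, at 50.03, 63.4, 48.5 and 39 against 70.3, 76.5, 72.9 and 85.3, a fold change of -0.61 (SE 0.16, adjusted p 0.0311). Scarb2 was lower too, at 102, 108, 95.2 and 85.3 against 112, 129, 112 and 124, a fold change of -0.29 (SE 0.08, adjusted p 0.0347). For both genes the ranges of Miglyol and saline were apart. In all, ranges were apart for 4 of the 39 genes with Miglyol higher (background 9.67%) and for these 2 with Miglyol lower (background 12.1%). Neutrophil markers summed to 119 to 163 after Miglyol and 62.5 to 76.2 after saline, with none of the 6 tested called. Markers called higher after Miglyol were 2 of 10 of monocytes and interstitial macrophages, 1 of 11 of alveolar macrophages (Chil3), 1 of 8 of alveolar type 2 cells (Sftpc) and 1 of 4 of the airway (Scgb1a1), and those called lower were 2 of 6 of endothelium and 1 of 6 of fibroblasts (Pdgfra). Their part in the result was not tested.

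Scarb2 and Npc1 thus had their lowest day 6 mean in the Miglyol group. Against saline the fold change after tamoxifen was 0.16 (95% interval -0.00 to 0.33) for Scarb2 and -0.29 (95% interval -0.60 to 0.02) for Npc1. The higher Scarb2 after tamoxifen and the lower Scarb2 after Miglyol use the same Miglyol libraries. The intronic share of reads differed between these groups, with means of 15.1% after saline, 13.1% after Miglyol and 13.3% after tamoxifen. In tamoxifen replicates 1 to 4 the share was 13.14%, 11.76%, 13.35% and 15.01%. It was 11.43% to 14.31% in the Miglyol libraries and 13.94% to 16.09% in the saline libraries. Tamoxifen replicate 4 was thus above every Miglyol library, and the part of this in its gene levels was not tested. With that share as a covariate none of the 3 calls held (Npc1 -0.33 with adjusted p 0.47, Scarb2 -0.17 with 0.48 and Atp6v0b 0.30 with 0.15), and 2 of all 14107 genes were called. The calls of Npc1 and Scarb2 were also lost without Miglyol replicate 1, 3 or 4 or saline replicate 2, 3 or 4. Among other lysosomal genes, Igf2r (-0.38), the receptor that sorts enzymes by mannose 6-phosphate, Mtor (-0.47) and Sort1 (-0.26) were lower after Miglyol and Cd63 (0.30) was higher.

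Set against saline, the tamoxifen group, which differs from it in both vehicle and drug, had 18 genes higher and none lower, with backgrounds of 11.3% of genes higher, 12.3% lower and 23.7% in either direction. This comparison uses the same tamoxifen libraries as the one with Miglyol, so its counts are not independent of it. The 18 included 7 of 9 proteases (all but Ctsl and Tpp1), 3 V0 genes (Atp6v0b, Atp6v0c and Atp6v0d2), 2 V1 genes (Atp6v1e1 and Atp6v1f), Neu1, Psap, Hexa and Man2b1, Npc2 and Tfeb. Tfeb measured 20.3, 19.9, 16.2 and 15.8 after saline and 19.4 to 25.6 after tamoxifen, overlapping, with a fold change of 0.36 (SE 0.11). Its call was lost when tamoxifen replicate 2 or 3 or saline replicate 3 or 4 was left out. Of the 8 fits that left out 1 library, the call held in 1 for Ctsa, in 2 for Ctsk, in 3 each for Hexa and Man2b1, in 7 for Atp6v1f and in all 8 for the other 12 genes. With the intronic share as a covariate, 2 of the 18 remained called, Npc2 and Atp6v0b.

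The median fold change of the 39 genes was 0.17 in that comparison, 0.14 for tamoxifen against Miglyol and 0.08 for Miglyol against saline. Over all genes these medians were 0.01, -0.00 and 0.02. Ctsd, for example, had fold changes of 0.81, 0.73 and 0.08, and Atp6v0b 0.43, -0.01 and 0.43, so that for the protease the drug comparison and for the pump gene the vehicle comparison held the larger value.

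At day 14 the question was whether the control treatments themselves moved lysosomal genes. None of the 39 genes was called in any of 6 comparisons by edgeR. The backgrounds were 0.233% for daily saline against untreated, 0.0494% for water against untreated, 2.74% for daily saline against water, 0.120% for scrambled1 against water, 0% for scrambled2 against water and 0.205% for scrambled1 against scrambled2. At an unadjusted p under 0.05 there were 3, 2, 4, 5, 0 and 6 of the 39, where the shares of all genes were 9.24%, 8.09%, 17.7%, 11.0%, 5.32% and 10.9%. DESeq2 called 1 gene, Atp6v0a1, for daily saline against water (adjusted p 0.0447) and none in the other 5.

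Gene by gene, the highest of the 5 day 14 group means exceeded the lowest by a median factor of 1.098. The factor was under 1.1 for 23 genes and under 1.2 for 37. It was lowest for Gusb, at 1.04, and highest for Npc1, at 1.25, followed closely by Tfeb, also at 1.25. Tfeb libraries were 20.2 to 24.0 in untreated mice, 22.3 to 25.3 after daily saline, 19.6 to 27 after water, 23.2 to 28.9 after scrambled1 and 23.3 to 24.5 after scrambled2. Scrambled1 libraries were the highest apart from 1 low replicate, and they overlapped those of every other group. Npc1 was 50.2 to 66.6 after scrambled1 and 64.0 to 81.7 after scrambled2, a fold change of -0.32 (SE 0.11, adjusted p 0.29).

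Genes with the smallest p-values at day 14 differed between comparisons. Atp6v0a1 came closest to a call, at 83.3, 85.5, 86.6 and 87.8 after daily saline and 92.6, 95.4, 99.2 and 97.2 after water, with no overlap (fold change -0.16, SE 0.05, adjusted p 0.0791). Ctsl was higher in each daily saline library, 343 to 371, than in each water library, 302 to 333 (fold change 0.18, SE 0.06, adjusted p 0.12). Gaa was 89.4, 84.3, 92.3 and 88.4 after daily saline and 74.1 to 78.5 in untreated mice (fold change 0.21, SE 0.07, adjusted p 0.28), and Grn 190.3 to 205 against 178 to 186 (fold change 0.14, adjusted p 0.42). Against water, Gaa had a fold change of 0.17 (adjusted p 0.17), where water replicate 3 measured 93.9 and the other water libraries 72.0 to 74.0. Without that library, which also held the adipose and muscle markers, Gaa was called by edgeR (0.27, adjusted p 0.0140). Water replicate 3 was the high library for Gaa itself, so this call is no independent test. With all libraries, Atp6v0a1 and Ctsl against water and Gaa and Grn against untreated did not overlap although none passed the test. Ranges were apart for 2 of the 39 in daily saline against untreated (background 6.67%) and for 3 in daily saline against water (background 11.3%).

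Man2b1, an alpha-mannosidase gene, was the leading gene of 2 comparisons with water, at 90.2 to 104 after water, 81.7 to 89.2 in untreated mice (fold change 0.16, adjusted p 0.42) and 78.8 to 92.9 after scrambled2 (fold change of scrambled2 against water -0.12, adjusted p 0.93). Its water and untreated libraries did not overlap. Scarb2 was 133 to 166 after water and 117 to 136 after scrambled1 (fold change -0.22, adjusted p 0.28), and Atp6v0b was 81.3 to 95.3 after scrambled1 and 74.8 to 83.5 after water (fold change 0.20, adjusted p 0.29). For both genes the groups overlapped. Glb1 in water against untreated mice had a fold change of 0.13 (adjusted p 0.66), Atp6v0e in scrambled1 against water 0.20 (0.36), and Atp6v1f and Scarb2 in scrambled1 against scrambled2 0.22 (0.35) and -0.19 (0.37). The remaining named values were -0.11 for Atp6v0a1 in daily saline against untreated (0.49), 0.16 for Scarb2 in water against untreated (0.60), and 0.09 for Ctsl and 0.08 for Grn in scrambled2 against water (0.96 each). Of the wider lysosomal lists, 1 gene was called in each of 2 comparisons: Slc38a9, an amino acid sensor of the lysosomal membrane, was lower after daily saline than after water (fold change -0.42, adjusted p 0.0249), and Tcirg1, a V0 gene, was higher after scrambled1 than after scrambled2 (0.35, adjusted p 0.0424).

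**Figure D4:**
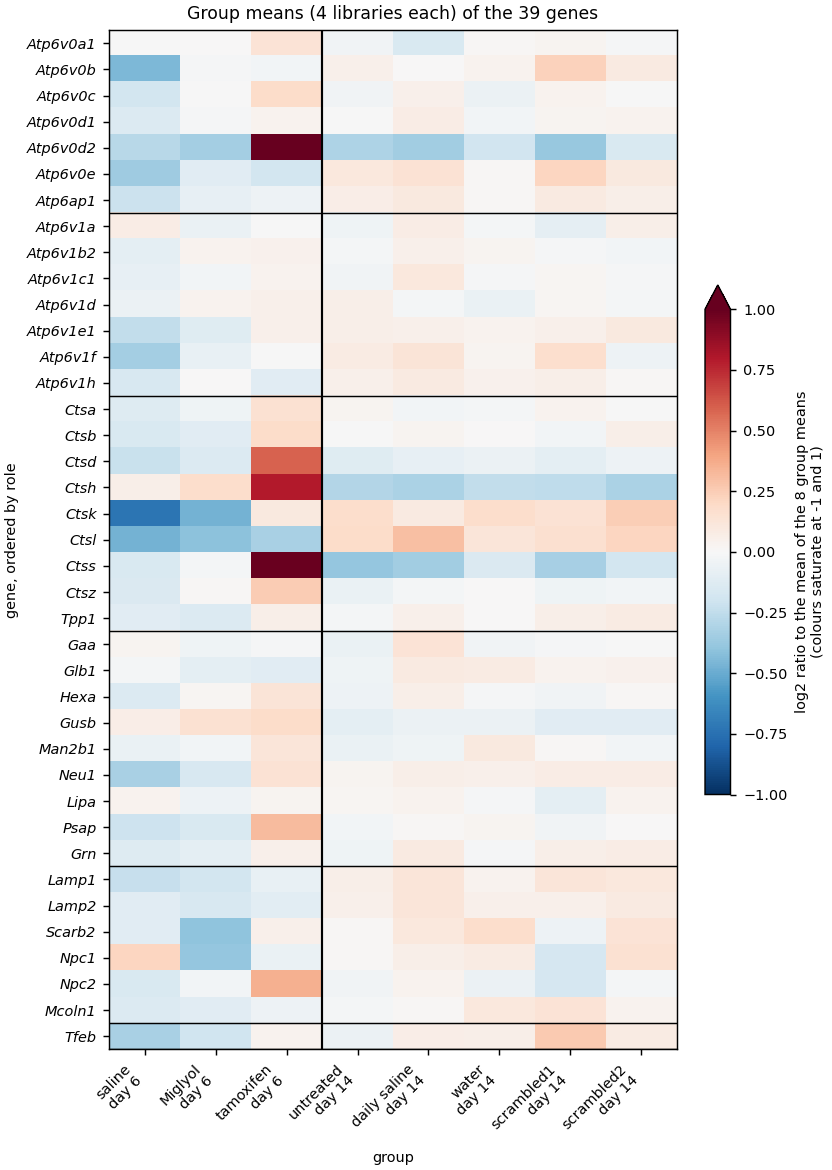
Mean level of each of the 39 genes in the 8 groups, as log2 ratio to the mean of the 8 group means, with genes ordered by role. Horizontal lines separate V0, V1, proteases, other hydrolases and their cofactors, membrane and sterol export, and Tfeb. Red is higher and blue lower, and colours saturate at 1 and -1. The tamoxifen column holds the highest mean for 15 genes and the saline column of day 6 the lowest for 24. The share of all genes was not counted for either.

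Over all 8 groups, the tamoxifen group had the highest mean for 15 of the 39 genes and daily saline for 11, while the saline group of day 6 had the lowest mean for 24. The shares of all genes with such extremes in these groups were not counted, so the counts describe these 39 genes alone. Within the day 6 groups the vehicle difference and the tamoxifen difference both came from 4 libraries a group, and between ages the treatments, the number of injections and the anaesthetic differ as well, so age cannot be told apart from them.

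Between the ages, 24 of the 39 genes differed, 17 higher and 7 lower at day 14, in the mean of the 5 day 14 groups against the mean of the 3 day 6 groups. The background was 61.4% of 14406 genes called, 30.0% higher and 31.3% lower, so the share of these genes that changed was close to that of all genes. The tamoxifen group raised several day 6 means. Without it 24 genes were called again, 22 higher and 2 lower at day 14, against a background of 57.5% called, 28.5% higher and 29.0% lower, and 19 genes were called with the same sign in both fits. The median fold change of the 39 genes was 0.04 with the tamoxifen group and 0.10 without it.

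Proteases moved in both directions. Ctsl, a cysteine protease gene, was 286 to 371 with a median of 331 in the 20 day 14 libraries and 202 to 230 with a median of 212 in the 8 saline and Miglyol libraries of day 6. Without the tamoxifen group its fold change was 0.63 (SE 0.03, adjusted p 1.09e-16), and with it 0.59. Ctsk was 24.1 to 37.3 at day 14 and 14.3 to 20.6 at day 6 (fold change 0.77, SE 0.08). Ctsh was lower at day 14, 169 to 218 against 225 to 277 (fold change -0.41, SE 0.05). For all 3 proteases the ages did not overlap.

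Lamp1 was 612 to 721 at day 14 and 517 to 565 in the day 6 saline and Miglyol libraries (fold change 0.30, SE 0.03), and Neu1 was 32.6 to 38.7 against 25.2 to 31.9 (fold change 0.30, SE 0.04). Ranges were thus apart for 5 of the 39 genes, Ctsl, Ctsk, Lamp1 and Neu1 higher and Ctsh lower, against a background of 12.9% of genes, 6.34% higher and 6.56% lower. Some tamoxifen libraries of Ctsk (14.2 to 40.0), Neu1 (30.5 to 42.1) and Lamp1 (546 to 618) reached the day 14 range, while none of Ctsl (198 to 261) did.

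**Figure D5:**
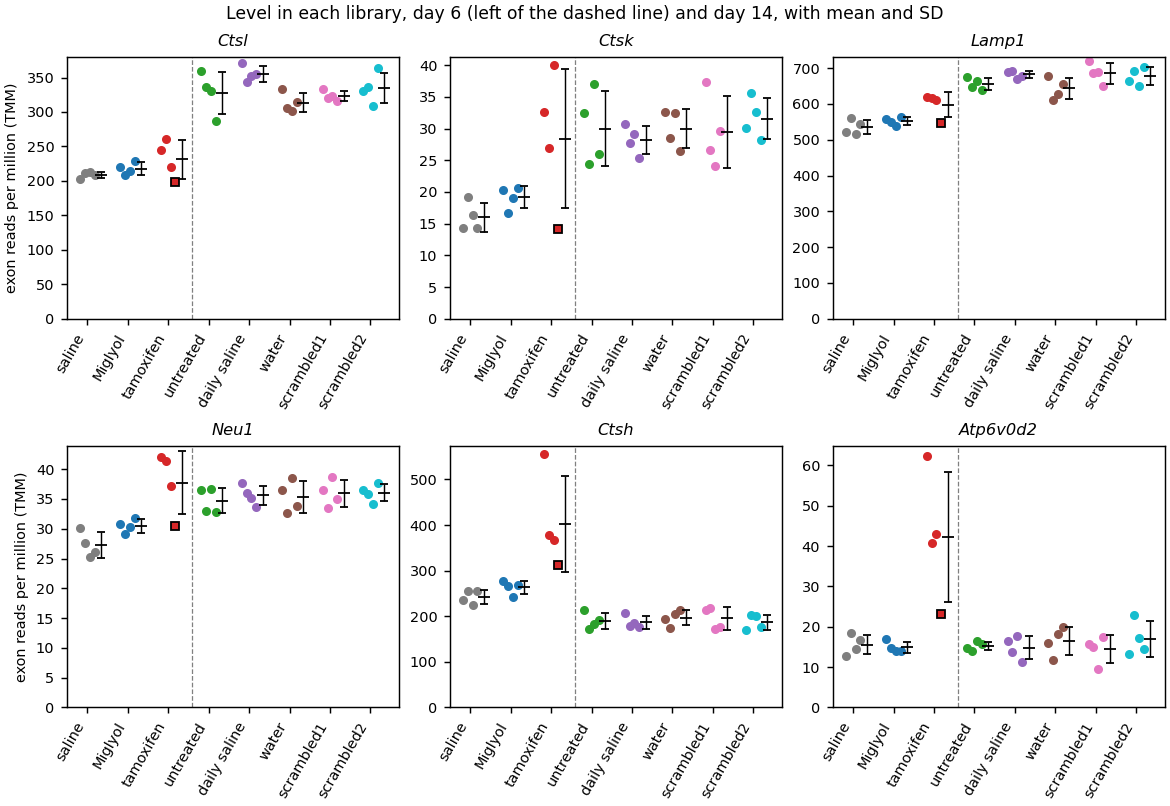
Level in each library of 6 genes in the 8 groups, in CPM on linear axes from 0, with day 6 left of the dashed line and mean ± SD beside the 4 libraries of a group. Ctsl, Ctsk, Lamp1 and Neu1 were higher at day 14 than in day 6 saline and Miglyol libraries, Ctsh was lower, and Atp6v0d2 was at 9.62 to 22.9 in all libraries except those of tamoxifen.

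In the pump, Atp6v0b (0.31), Atp6v0e (0.35), Atp6ap1 (0.21), Atp6v0d1 (0.10), Atp6v1e1 (0.24), Atp6v1f (0.28) and Atp6v1h (0.12) were higher at day 14 without the tamoxifen group, and none of the 14 pump genes was lower. In the membrane group Scarb2 (0.33), Lamp2 (0.21) and Mcoln1 (0.18) were higher besides Lamp1. Tfeb was higher as well, at 19.6 to 28.9 in day 14 libraries and 15.8 to 20.3 in saline and Miglyol libraries of day 6 (fold change 0.35, SE 0.06, adjusted p 4.39e-06). Gusb, a beta-glucuronidase gene, was lower (-0.20, SE 0.04), and Psap (0.18), Tpp1 (0.16), Grn (0.15), Ctsb (0.14), Glb1 (0.10), Ctsd (0.09) and Ctsa (0.09) were higher by small steps.

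A few of these age differences turned on the tamoxifen libraries. With them included, Ctsd (-0.16), Npc2 (-0.11) and Atp6v0d2 (-0.46) were called lower at day 14. Without them Ctsd was called higher (0.09, adjusted p 0.0261), and Npc2 (0.04, adjusted p 0.57) and Atp6v0d2 (0.03, adjusted p 0.85) were not called. Ctss (-0.55 with and -0.19 without, adjusted p 0.10) and Atp6v0a1 (-0.08 and -0.03) were called only with the tamoxifen group included. Markers of several cell types moved with age. Between day 14 and the saline and Miglyol libraries of day 6, the summed CPM was 264 to 738 against 183 to 236 for alveolar macrophages, 399.6 to 547 against 273 to 337 for monocytes and interstitial macrophages, 12211 to 17200 against 6962 to 8519.8 for fibroblasts, 3007 to 3753 against 2462 to 2879 for endothelium and 2855 to 4075 against 2095 to 2387 for alveolar type 1 cells. The alveolar macrophage list went both ways, with 5 of 12 markers called higher and 2 lower, Mrc1 and Plet1, and most of its sum at day 14 came from Chil3 (mean 223 against 7.91) and Car4 (124 against 63.2). Of 10 monocyte and interstitial macrophage markers 2 were called higher and 1, Cx3cr1, lower, and Apoe alone averaged 280 against 128. Of 6 fibroblast markers 3 were called higher. Eln averaged 10281 against 3640, while Col1a1, Col1a2 and Tcf21 were not called. The part of these cells in the age differences was not tested.

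In the wider lysosomal lists without the tamoxifen group, where 28.5% of all genes were higher at day 14 and 29.0% lower, 19 of 32 further hydrolases were higher and 4 lower, 7 of 16 membrane proteins were higher and 1 lower, 6 of 7 autophagy genes were higher, 4 of 9 further pump genes were higher and 3 lower, and 4 of 16 regulators and sorting genes were higher and 3 lower. With that group (30.0% and 31.3% of all genes) these counts were 18 and 7, 6 and 2, 6 and 0, 3 and 4, and 3 and 3. The values that follow are from the fit with all groups. Cst3, which encodes the cathepsin inhibitor cystatin C, was at 449 ± 49.2 (SD, n = 20) at day 14 and 234 ± 24.4 (n = 12) at day 6, a fold change of 0.94 (SE 0.04). The protease genes Ctsf (0.85) and Ctso (0.52), the autophagy genes Gabarapl1 (0.64) and Map1lc3b (0.32), the sulfatase gene Ids (0.43) and Ostm1 (0.34) were higher, and Igf2r was lower (-0.64).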

How the data were processed

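Gene tables of 32 whole-lung mRNA libraries were used. Per the file headers, each deposited table gives total exon reads per gene as counts, and the authors' TPM values computed from them. The submitters' processing notes name bcl2fastq 2.0 for demultiplexing. No source used here gives the aligner, build, annotation or strand setting. Reads shared between near-identical genes are included in the deposited counts.

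The counts were tested in R 4.3.3 with edgeR 4.0.16 (low-count filter, TMM scaling, quasi-likelihood test with robust dispersion), with the 3 day 6 groups in 1 fit and the 5 day 14 groups in another, and all 32 libraries in a separate fit for the ages. A gene was called at a Benjamini-Hochberg adjusted p under 0.05 over all genes tested. Levels were compared between genes on the deposited TPM, where reads per kilobase had been planned. Printed CPM (counts per 1000000) were scaled over all 32 libraries, and fold changes are log2 values from the fits. Intervals are 95% (1.96 SE). All 39 genes passed the filter in each fit. Depth of 7918537 to 12443221 exon reads limits the precision of low genes. All 496 pairs of libraries differed by more than counting noise (chi-square per gene of 2.32 to 44.4, and up to 15.9 within groups), so no library was counted as a copy of another.

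Named genes are the called members, up to 25 per comparison by smallest p, or the 3 with the smallest p where fewer than 3 were called, and up to 8 called genes of the wider lists, of which 1 is counted but not reported here by name. The members and lists were chosen with earlier results of these data known. Data were simulated from the 12 day 6 libraries (14107 genes, 100 changed per fold size in the tamoxifen group). There the test of tamoxifen against Miglyol found 75% of 1.5-fold and 87% of 2-fold changes, and 8 of 170 calls were false. The simulated libraries of a group shared the same expected level of each gene, so none was set apart like tamoxifen replicate 4. Alternatives were DESeq2 1.42.0, other scalings, filters and read types, covariates for intronic share and Xist, the replicate number as a block, other sets of libraries in the fit, and leaving out each library. Same-numbered libraries did not deviate together at day 6, with a median correlation of -0.13 against 0.04 for other pairs. At day 14 the medians were 0.05 and -0.02, which does not settle the matter. The numbers were not taken to pair the libraries. Promoters came from RefSeq (GRCm38.p6), and for the 32 genes matched the files' gene start lay within 951 bases of a start in that table.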

Additional observations from a re-analysis of the deposited data

Results flagged for a closer look

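Within groups of 4, the level of a gene in 1 library was marked where its gap to the nearest other library took up a larger part of the group's range than the 95% critical value of Dixon's test. Chance marks about 1 in 20 groups, and here 24 of 312 groups (7.69%) were marked. All values are CPM.

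Tamoxifen replicate 4 was low for Ctsa (108, others 153 to 157), Ctss (95.8, others 204 to 219), Ctsz (95.3, others 132 to 136) and Lamp1 (546, others 610.1 to 618). The same library had the lowest neutrophil marker sum of its group. Miglyol replicate 4 was low for Atp6v1a (123) and Lamp2 (325) and high for Ctsz (118), and Miglyol replicate 2 was low for Hexa (73.8).

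At day 14, water replicate 2 was low for Ctsd (389, others 480.4 to 494) and Ctsz (88.0), water replicate 3 was low for Atp6v1c1 (43.1) and high for Gaa (93.9), and water replicate 4 was high for Npc1 (82.0). Water replicate 3 is the library with high adipose and skeletal muscle markers. Daily saline replicate 1 was high for Atp6v1c1 (53.7) and Hexa (91.0) and replicate 3 for Atp6v0c (174). Untreated replicate 1 was high for Atp6v1e1 (107) and replicate 4 for Lipa (134). Scrambled1 replicate 3 was high for Atp6v0a1 (101) and Mcoln1 (38.2), replicate 2 of the same group was high for Ctsb (369) and low for Tfeb (23.2), and scrambled2 was low for Man2b1 in replicate 4 (78.8) and for Mcoln1 in replicate 2 (28.1).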

How the results depend on the processing

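For tamoxifen against Miglyol the number of members called was 8, and it was 13 with the intronic share as a covariate, 4 with only the 2 groups in the fit and 4 to 15 when 1 library was left out (15 without tamoxifen replicate 4, 4 without tamoxifen replicate 1, 5 without any 1 Miglyol library), always all higher. For Miglyol against saline it was 3, and 1 when Xist was a covariate, 0 with the intronic share instead (median fold change of the members -0.039), 5 with all 32 libraries in 1 fit and 1 to 4 when 1 library was left out. For tamoxifen against saline it was 18 and fell to 2 with the intronic share as a covariate. With the replicate number as a block the count was 6 for tamoxifen against Miglyol and 1 for Miglyol against saline, where 461 of all genes were called in place of 1498. The numbers were not taken to pair the libraries. Of same-numbered pairs, 3 of 12 at day 6 and 18 of 40 at day 14 correlated above 0.1, at most 0.22 and 0.50. At these ages 2 of 12 and 7 of 20 libraries correlated best with their own number. Differently numbered pairs above 0.1 were not counted, so pairing at day 14 is not settled.

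At day 14 the median of daily saline against untreated was 0.04, and 0.10 from all reads in the gene and -0.0126 with the intronic share. For daily saline against water no member was called by edgeR, 1 by DESeq2, 3 from all reads in the gene and 0 to 1 when 1 library was left out (1 without water replicate 3); with the intronic share the median was -0.0789 and the value of Ctsl was -0.0056, reversed. Between the ages, 24 members were called, and 14 for untreated against saline alone; the median was 0.04, and 0.10 without the tamoxifen group and 0.12 for untreated against saline alone. Reversed values were Atp6v0d2 0.0258, Ctsd 0.0949 and Npc2 0.0370 without the tamoxifen group, and Glb1 -0.0229, Ctsd 0.10 and Npc2 0.12 for untreated against saline alone. The cause was not tested in any of these. Over named genes and the settings other than leaving out 1 library, 867 values kept direction and call, 71 lost the call, 4 gained it and 7 reversed. In the fits that left out 1 library these counts were 1069, 74, 1 and 0. Counts over all genes moved by over 1.5 times under these settings. Tamoxifen against Miglyol gave 801 genes, 1268 with the intronic share and 488 with only these groups in the fit. Miglyol against saline gave 1498, 461 with the replicate block, 986 with Xist, 2 with the intronic share, 2573 with only these groups and 2272 with all libraries in 1 fit. Tamoxifen against saline gave 3343, and 1190 with the intronic share. Daily saline against untreated gave 33, and 0 to 114 over 6 settings (114 by DESeq2). Water against untreated gave 7, and 1 to 23 over 4 settings (23 by DESeq2). Daily saline against water gave 389, 1270 from all gene reads, 229 with Xist and 13 with the intronic share. Scrambled1 against water gave 17, and 10 to 98 over 4 settings (98 by DESeq2), scrambled2 against water 0, and 5 by DESeq2, and scrambled1 against scrambled2 29, and 6 to 64 over 6 settings (64 with the intronic share). The age comparison gave 8842, and 5438 for untreated against saline alone. When 1 library was left out, the count was 429 (without tamoxifen replicate 1) to 1188 for tamoxifen against Miglyol, 308 (without saline replicate 4) to 1729 for Miglyol against saline, 1991 (without saline replicate 4) to 3924 for tamoxifen against saline, 1 to 9 for daily saline or water against untreated, 28 (without daily saline replicate 1) to 276 for daily saline against water, 3 to 39 for scrambled1 against water, 0 to 1 for scrambled2 against water, 0 to 205 (without scrambled2 replicate 4) for scrambled1 against scrambled2 and 8641 to 8973 for the ages.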
